A study of Mus musculus with 6 samples.

Results

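The genes described here encode the subunits of the oxidative phosphorylation machinery that are read from the nuclear genome. They were chosen by symbol on the array annotation: every gene whose symbol starts with Nduf, Uqcr, Atp5, Cox4, Cox5, Cox6, Cox7 or Cox8, and the genes Sdha, Sdhb, Sdhc and Sdhd. This gave 84 of the 12393 genes on the arrays, 39 of complex I, 4 of complex II, 8 of complex III, 16 of complex IV and 17 of complex V. Complexes were assigned by symbol, so every Nduf gene, Ndufa4 among them, was counted with complex I. The symbol rule used no measured value, and it also takes in the Ndufaf genes, which encode assembly factors of complex I rather than subunits. A gene with several probe sets is represented by the one brightest on average (mean log2 signal). The rule counts only probe sets annotated to a single gene, so genes such as Ndufa11, Ndufb4 and Ndufs6, whose probe sets carry the symbols of several genes, were not members.

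Expression was measured on 6 Affymetrix mouse arrays with RNA of Ba/F3 cells, mouse pro-B cells whose growth depends on interleukin 3 (IL3) or on an active kinase in its place. Cells carried pMSCV-ETV6-PDGFRB, pMSCV-FIP1L1-PDGFRA or the empty pMSCV vector, in DMEM with 10% serum. The lines with ETV6-PDGFRB or FIP1L1-PDGFRA, fusions of a PDGF receptor kinase found in myeloid neoplasms with eosinophilia, had been selected to grow without IL3, whereas cells with the empty vector received it. RNA was taken from untreated cells and after 4 h with 100 nM Glivec (imatinib), which blocks PDGF receptor, ABL and KIT kinases. Whether a line was 1 clone or a pool is not given in the sources used here. There was 1 array for each line and treatment, so a ratio within a line has no replicate check and precision is limited by how few arrays there are.

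Oxidative phosphorylation takes place in the inner mitochondrial membrane. Complex I (NADH dehydrogenase) and complex II (succinate dehydrogenase) pass electrons to ubiquinone, complex III passes them on to cytochrome c, and complex IV (cytochrome c oxidase) hands them to oxygen. Complexes I, III and IV pump protons, and complex V, the ATP synthase, makes ATP as protons flow back. Each complex except II joins subunits from the nuclear genome with subunits from mitochondrial DNA. Around the catalytic core sit many small accessory subunits, also called supernumerary, that hold the complex together or steer its assembly.

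These genes were among the bright ones of Ba/F3 cells. Of the 84, 78 exceeded a signal floor of 20.1, the median signal of the arrays, on all 6 arrays, and 65 had a mean signal above 500. The genes below the floor on every array were the tissue-restricted isoforms Cox4i2, Cox6a2, Cox6b2 and Cox8b, and Cox7c, a subunit found in all tissues. Both probe sets of Cox7c were below it, with the brighter one between 9.44 and 13.8. Cox7a1, an isoform of heart and skeletal muscle, exceeded the floor only in FIP1L1-PDGFRA cells, at 24.9 untreated and 28.8 with imatinib. Tests used the 79 members above the floor on at least 2 arrays, and a member listed as tested could pass through a single line, as Cox7a1 did.

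The promoters of the assembly factor gene Ndufaf4, which had the largest response, and of 2 of the called accessory subunit genes are shown here because known activators of respiratory genes act through short promoter motifs. RefSeq's promoter table for the GRCm38.p6 assembly, which runs from 250 bases before to 50 after each annotated start, held 70 of the 84 genes. Each line reads 5′ to 3′ on the strand of the gene, and capitals mark motif matches on either strand. In Ndufaf4, on the plus strand at chr4:24897833-24898132, the first run of capitals is a palindromic match to the NRF1 motif GCGCANGCG on both strands, and the second holds a pair of SP1 boxes (GGGCGG) that overlap by a base.
Ndufaf4: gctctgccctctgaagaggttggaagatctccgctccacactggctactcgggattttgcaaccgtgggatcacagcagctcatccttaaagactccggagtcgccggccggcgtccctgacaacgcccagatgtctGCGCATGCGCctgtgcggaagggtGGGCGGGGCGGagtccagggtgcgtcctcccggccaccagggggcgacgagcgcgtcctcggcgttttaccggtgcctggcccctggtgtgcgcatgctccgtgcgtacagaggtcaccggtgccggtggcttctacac
In Ndufa6, on the minus strand at chr15:82354242-82354541, the capitals are in turn an NFY box (CCAAT), an NRF1 match and an SP1 box.
Ndufa6: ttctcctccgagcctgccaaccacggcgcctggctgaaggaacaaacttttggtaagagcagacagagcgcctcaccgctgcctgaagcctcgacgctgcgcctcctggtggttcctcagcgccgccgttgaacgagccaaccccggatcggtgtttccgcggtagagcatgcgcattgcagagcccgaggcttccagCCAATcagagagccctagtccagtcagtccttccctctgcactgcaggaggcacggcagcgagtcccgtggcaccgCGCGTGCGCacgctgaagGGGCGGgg
In Ndufb11, on the minus strand at chrX:20617570-20617869, a YY1 match (AANATGGC) comes first and is followed by 4 NFY boxes, all written as ATTGG on this strand.
Ndufb11: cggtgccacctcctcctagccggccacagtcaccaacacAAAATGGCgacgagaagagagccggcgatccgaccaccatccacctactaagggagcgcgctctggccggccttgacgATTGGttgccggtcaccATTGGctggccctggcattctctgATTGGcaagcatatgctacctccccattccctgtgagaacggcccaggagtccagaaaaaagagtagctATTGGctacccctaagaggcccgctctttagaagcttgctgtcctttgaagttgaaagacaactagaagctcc

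The motif letters occurred at unequal rates in the 75 promoter windows of members. NRF1 letters were found in 26.7% of members' windows, in 15.6% of the windows of all genes tested and in 6.25% of all 32851 windows. YY1 letters were found in 21.3%, 9.74% and 6.05% of the same sets, and the ETS motif CCGGAAG, bound by GABPA, in 18 of the 75 members' windows, against 20.6% and 8.86% in the other sets. The SP1 box was found in 42.7% of members' windows and in 64.5% of those of genes tested, and the NFY box in 38.7% and 37.9%. The E-box CACGTG, bound by MYC with MAX, was found in 9.33% of members' windows and in 10.8% of those of genes tested. A match is a stretch of letters, not a measured site, and the window of Ndufb1, the member with the largest positive change, held none of these motifs.

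The main comparison asked what 4 h of imatinib did to these transcripts in cells that depend on a PDGF receptor fusion. With the deposited scaling, most members were slightly higher after imatinib in both fusion lines and near their untreated level in IL3 cells, but with hybridization-control scaling their median in FIP1L1-PDGFRA cells was below 0. The complex I assembly factor Ndufaf4 was much lower in both fusion lines. The median log2 ratio of imatinib to untreated over the members was 0.21 for ETV6-PDGFRB, 0.19 for FIP1L1-PDGFRA and -0.02 for IL3 cells, against 0.03, 0.05 and 0.01 over all genes tested. Over genes of mean signal above 500, a background chosen after seeing the data, the medians were 0.08, 0.09 and -0.01. When arrays were scaled to their spiked hybridization controls instead of the deposited scaling, all genes tested together moved to -0.16 and -0.21, the members to 0.02 in ETV6-PDGFRB cells and -0.07 in FIP1L1-PDGFRA cells. Over the main and 8 other settings, the members' median was above that of all genes by 0.10 to 0.19 in ETV6-PDGFRB cells. In FIP1L1-PDGFRA cells it was above by 0.09 to 0.16. Hybridization-control scaling and median centring multiply all signals of an array by the same factor, so they could hardly change this gap. Quantile normalization could, and it gave the smallest gaps, 0.10 and 0.09, against 0.18 and 0.14 with the deposited scaling.

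**Figure D1:**
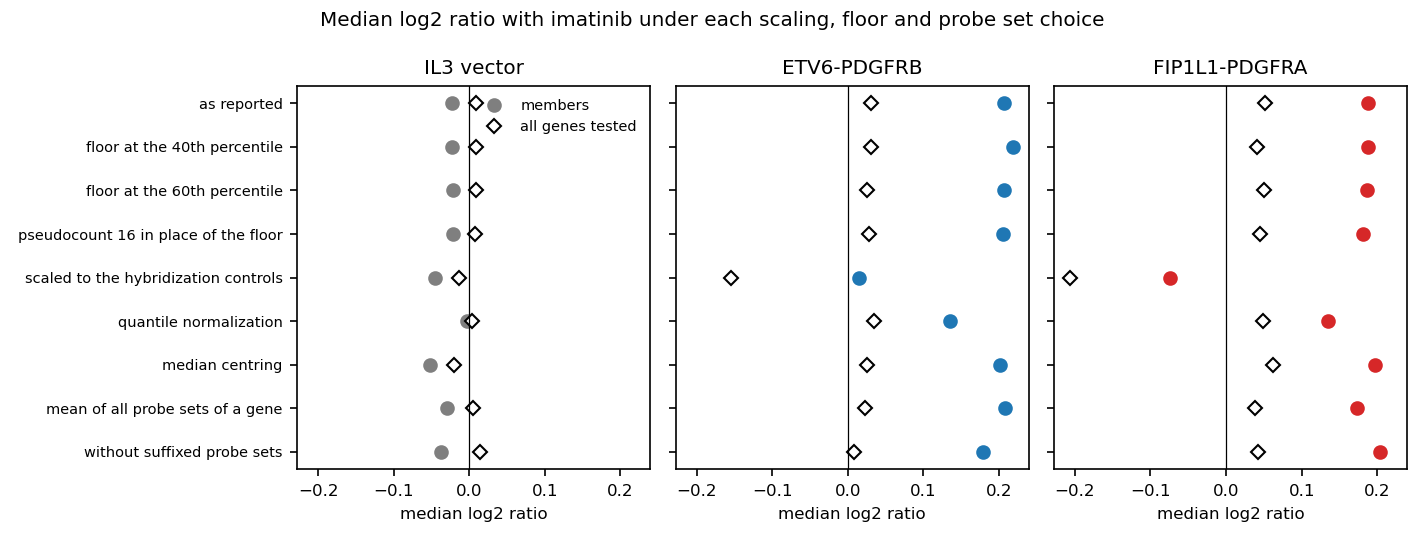
Median log2 ratio of imatinib to untreated (x axis) in each line under each scaling, floor and probe set choice (rows), with filled points for the oxidative phosphorylation genes and open diamonds for all genes tested. In both fusion lines the members lie to the right of all genes in every row, but scaling to the hybridization controls puts the members of FIP1L1-PDGFRA cells below 0, at -0.07.

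Single genes were tested with limma, which treated the fusion lines as 2 repeats, kept the line as a block and counted the difference within the IL3 pair as spread. Rose and fell mean an adjusted p under 0.05 (Benjamini-Hochberg over the 6808 genes tested), and changes are on the log2 scale with their SE. Of the 79 members tested, 7 rose (8.86%) and 1 fell (1.27%). Of all genes tested, 13.5% rose and 12.4% fell, so both shares of members lay below the background, a difference that was not tested. With scaling to the hybridization controls 398 of all genes rose and 1872 fell, against 916 and 841 with the deposited scaling. Among genes of mean signal above 500, 9.93% rose and 9.1% fell, and of the 65 members there 5 rose and 0 fell. A further 19 members (24.1%) had an adjusted p between 0.05 and 0.1, against 13.3% of all genes. An unadjusted p under 0.05 was found for 31 members (39.2%) and for 42.7% of all genes, so that count does not set the members apart. The members' median change was 0.19, that of all genes 0.04 and that of genes of mean signal above 500 was 0.09. With the deposited scaling 76 of 79 members had changes above 0, as did 54.5% of all genes and 62.4% of those bright genes, and with scaling to the hybridization controls 34 of 79 members did. The count of members that rose ran from 1 with hybridization-control scaling to 17 with a higher floor, and it was 0 when either fusion line was left out or the line was not a block.

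**Figure D2:**
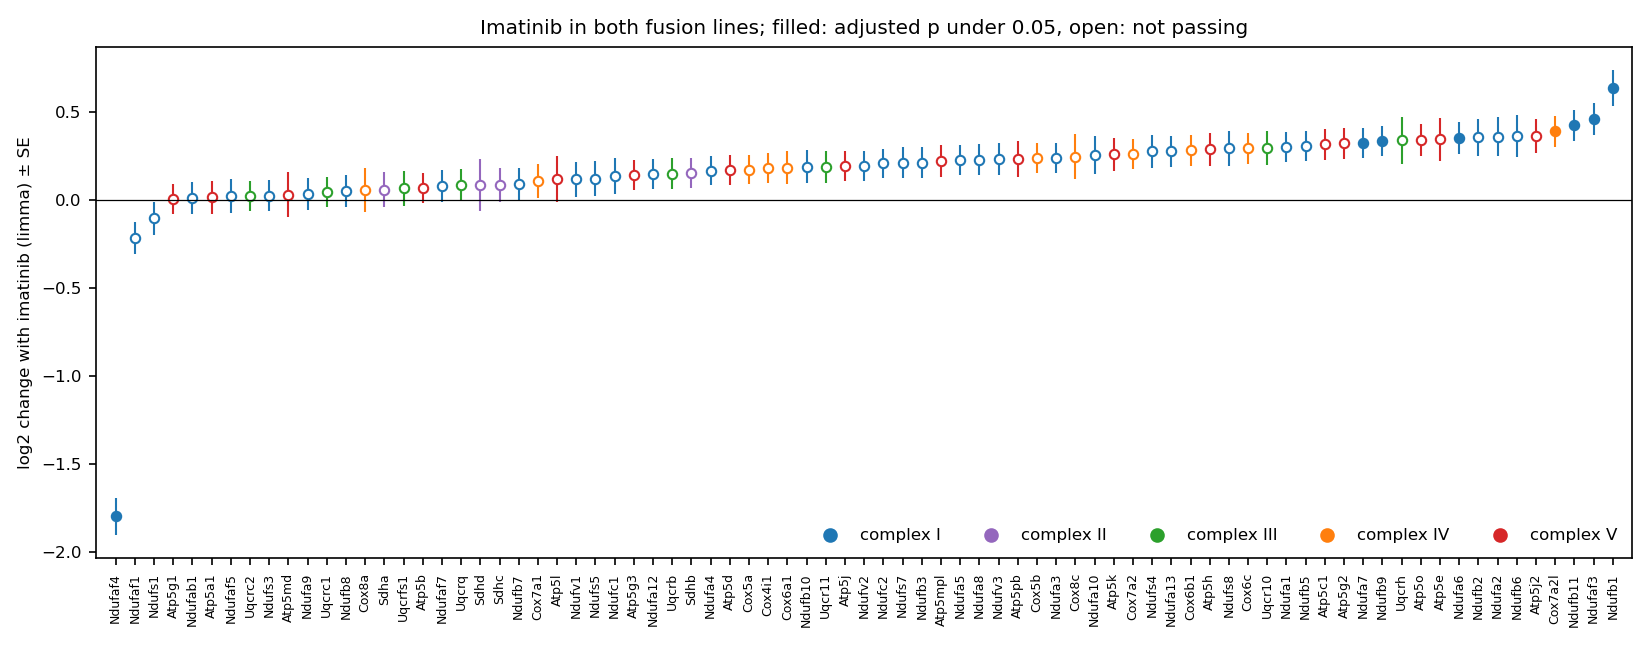
Log2 change with imatinib in both fusion lines (y axis, limma estimate, bars are SE) for the 79 members tested, ranked along the x axis and coloured by complex, with filled points for adjusted p under 0.05. Ndufaf4 stands alone at -1.80, and 76 changes lie above 0, which became 34 with scaling to the hybridization controls.

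Ndufaf4, an assembly factor that works with Ndufaf3 early in the building of complex I, had the largest response of the set. Its signal was 255 in untreated ETV6-PDGFRB cells and 78.0 with imatinib, 302 and then 81.7 with FIP1L1-PDGFRA, and 317 and then 356 in IL3 cells. Both treated fusion arrays were thus far below the other 4 arrays, with no overlap. The call of this and of each gene below rests on these same arrays, so their order is no further support. The change was -1.80 ± 0.11 (adjusted p = 0.00274), a 3.48-fold lower level. The second probe set of the gene, dimmer at a mean of 77.8, gave log2 ratios of -1.56 and -1.58 in the fusion lines and -0.04 in IL3 cells. This call was lost in 3 of the 13 alternatives, namely with no filter on low genes and when either fusion line was left out. Its change stayed between -2.02 and -1.62 in all 13. Fits without a fusion line had 1 residual degree of freedom, too few for a call of any gene. Each tally of kept calls counts them as losses, which therefore say nothing about the gene. For comparison, Myc fell by 1.71 ± 0.12 in the same test (adjusted p = 0.00383), from 656 to 232 and from 681 to 180, and was 724 and 722 in IL3 cells.

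Its partner Ndufaf3 moved the other way. Ndufaf3 rose by 0.46 ± 0.09 (adjusted p = 0.0247), with a signal of 127 before and 182 after imatinib for ETV6-PDGFRB, 109 and 143 for FIP1L1-PDGFRA, and 113 and 108 for IL3 cells. Both treated fusion arrays were the highest of the 6. The assembly factors Ndufaf1, Ndufaf5 and Ndufaf7 did not pass, with changes of -0.22, 0.02 and 0.08. The 5 Ndufaf genes on the arrays therefore included the largest fall of all members and the second largest rise.

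Accessory subunits of complex I supplied 5 of the 7 members that rose. By class, 3 of 10 Ndufb and 2 of 18 other accessory subunits rose, against 13.5% of all genes, a difference that was not tested. Ndufb1, a small subunit of the membrane arm, had signals of 159 and 267 (ETV6-PDGFRB, untreated and imatinib), 215 and 309 (FIP1L1-PDGFRA), and 192 and 182 (IL3 cells). The 2 treated fusion arrays were the highest, and the change was 0.63 ± 0.10 (adjusted p = 0.0148), which is 1.55-fold. Ndufb11, a membrane arm subunit encoded on the X chromosome, was at 1387 and 1860 for ETV6-PDGFRB, at 1330 and 1783 for FIP1L1-PDGFRA, and at 1346 and 1275 for IL3 cells. It rose by 0.42 ± 0.09 (adjusted p = 0.0264), with the same log2 ratio of 0.42 in both fusion lines. Ndufa6, which holds the acyl carrier protein at the peripheral arm, went from 766 to 966 and from 734 to 948 in the same fusion lines, and from 677 to 629 in the IL3 pair, a rise of 0.35 ± 0.09 (adjusted p = 0.0451).

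Ndufb9 and Ndufa7 also rose and, being outside the rule for named genes, are named because they complete the count. Ndufb9 rose by 0.33 ± 0.08 (adjusted p = 0.0437) and Ndufa7 by 0.32 ± 0.08 (adjusted p = 0.0484). The signal of Ndufb9 reached 1663 and 1740 on the treated fusion arrays and was between 1312 and 1387 on the other 4. That of Ndufa7 reached 1237 and 1299 against 976 to 1070 on the others. These modest calls sat close to the threshold: Ndufa6 kept its call in 3 of 13 alternatives, Ndufa7 in 4 of 12, Ndufb9 in 5 of 13, Ndufb11 in 6 of 13, Ndufaf3 in 7 of 13 and Ndufb1 in 9 of 13.

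**Figure D3:**
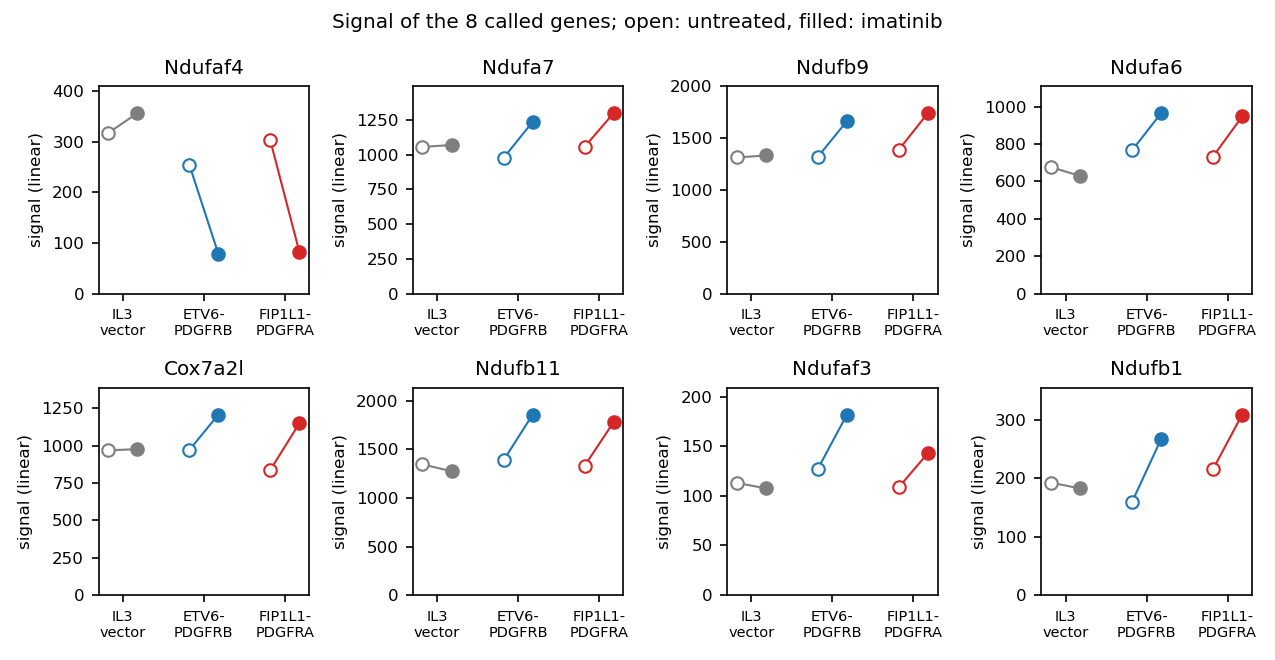
Array signal (y axis, linear, from 0) of the 8 members called by limma, with open points for untreated and filled points for imatinib arrays of each line, 1 array per point. Ndufaf4 drops from 255 to 78.0 and from 302 to 81.7 in the fusion lines. The other 7 genes are highest on the treated fusion arrays under the deposited scaling, an order that being called higher from these arrays favours.

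Within complex I, the accessory subunits and the core had unequal medians. These classes follow textbook subunit roles and were drawn up after the values had been seen, so their medians are descriptions. All 10 Ndufb accessory subunits tested had changes above 0 with the deposited scaling, with a median of 0.32, and 3 of them rose. Of all 79 members 76 had changes above 0, so the sign does not set the Ndufb genes apart. The other 18 Nduf genes counted as accessory subunits, Ndufa4 among them, were all above 0 as well, with a median of 0.23, and 2 of them rose. Of the 6 core subunits, 0 were called and the median was 0.15. The core subunit Ndufs1 had a change of -0.11 and Ndufs3 of 0.02, while Ndufs8 was at 0.29 ± 0.10 (adjusted p = 0.0865). With hybridization-control scaling Ndufb1 alone rose among all members, and Ndufs1, Ndufaf1 and Ndufaf4 fell.

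Complex II, which is also an enzyme of the citric acid cycle, had 0 of 4 members called. For this and the complexes below, the background is 13.5% of all genes that rose and 12.4% that fell. Its changes lay between 0.06 for Sdha, the flavoprotein that oxidises succinate, and 0.15 ± 0.08 for Sdhb, its iron-sulfur partner (adjusted p = 0.235). Sdha was 627 untreated and 596 with imatinib for ETV6-PDGFRB, 548 and 623 for FIP1L1-PDGFRA, and 569 and 564 for IL3 cells. On this probe set the fusion lines moved in opposite directions, with log2 ratios of -0.07 and 0.19. The other probe set of Sdha had 0.23 and 0.26, the same direction in both. The membrane anchor Sdhd had log2 ratios of -0.12 and 0.29 in the fusion lines, and its other, dimmer probe set had 0.49 and -0.03. With hybridization-control scaling the changes of Sdha and Sdhb were below 0.

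Complex III had 0 of 8 members called. The core proteins Uqcrc1 and Uqcrc2 and the Rieske iron-sulfur protein Uqcrfs1 had changes of 0.04, 0.02 and 0.06, and the 5 small accessory subunits had a median of 0.19. Uqcrh, the hinge protein that binds cytochrome c1, had the largest change, 0.34 ± 0.13 (adjusted p = 0.118). Its signal went up from 1162 to 1511 with ETV6-PDGFRB, up from 1240 to 1521 with FIP1L1-PDGFRA, and down from 1310 to 1049 in IL3 cells. The untreated fusion arrays lay between the IL3 arrays, and the treated ones above both.

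Complex IV had 1 of 11 tested members called. Cox7a2l, related to the Cox7a subunits and known for joining complexes III and IV into supercomplexes, had untreated and imatinib signals of 969 and 1207 with ETV6-PDGFRB, 837 and 1150 with FIP1L1-PDGFRA, and 968 and 976 in IL3 cells. It rose by 0.39 ± 0.09 (adjusted p = 0.0348), a call kept in 5 of 12 alternatives. Cox6c, Cox6b1 and Cox7a2, widely expressed small subunits, had changes of 0.29, 0.28 and 0.26 that did not pass. Cox8a had the smallest change, 0.05 ± 0.12 (adjusted p = 0.762), with log2 ratios of -0.15 in ETV6-PDGFRB cells and 0.26 in FIP1L1-PDGFRA cells. Cox4i1, the common isoform of subunit 4, was among the brightest members at 3023 to 3523 and had a change of 0.18.

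Complex V had 0 of 17 members called. An unadjusted p under 0.05 was found for 7 of them, all higher, and for 42.7% of all genes. Atp5j2, the f subunit of the membrane part, came closest, at 0.36 ± 0.10 (adjusted p = 0.0501). Its signals were 1598 and 2208 for ETV6-PDGFRB, 1591 and 1904 for FIP1L1-PDGFRA, and 1670 and 1608 for IL3 cells. The catalytic head subunits Atp5a1 and Atp5b had changes of 0.01 and 0.07, and the 4 subunits of the peripheral stalk a median of 0.26. The isoforms of the c ring, Atp5g1, Atp5g3 and Atp5g2, encode an identical mature protein and had changes of 0.01, 0.14 and 0.32. Atp5g1 was 995 and 979 for ETV6-PDGFRB, 982 and 1006 for FIP1L1-PDGFRA, and its change was below 0 with hybridization-control scaling and with quantile normalization.

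Across the complexes, 18 genes were grouped: the complex I core, all of complex II, the core and Rieske proteins of complex III, and the head and central stalk of complex V. They had median log2 ratios of 0.05 for ETV6-PDGFRB and 0.15 for FIP1L1-PDGFRA. The other 54 subunits, the c ring among them, had medians of 0.28 and 0.21, and in IL3 cells the medians of these groups were -0.00 and -0.02. The difference between these classes was not tested.

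**Figure D4:**
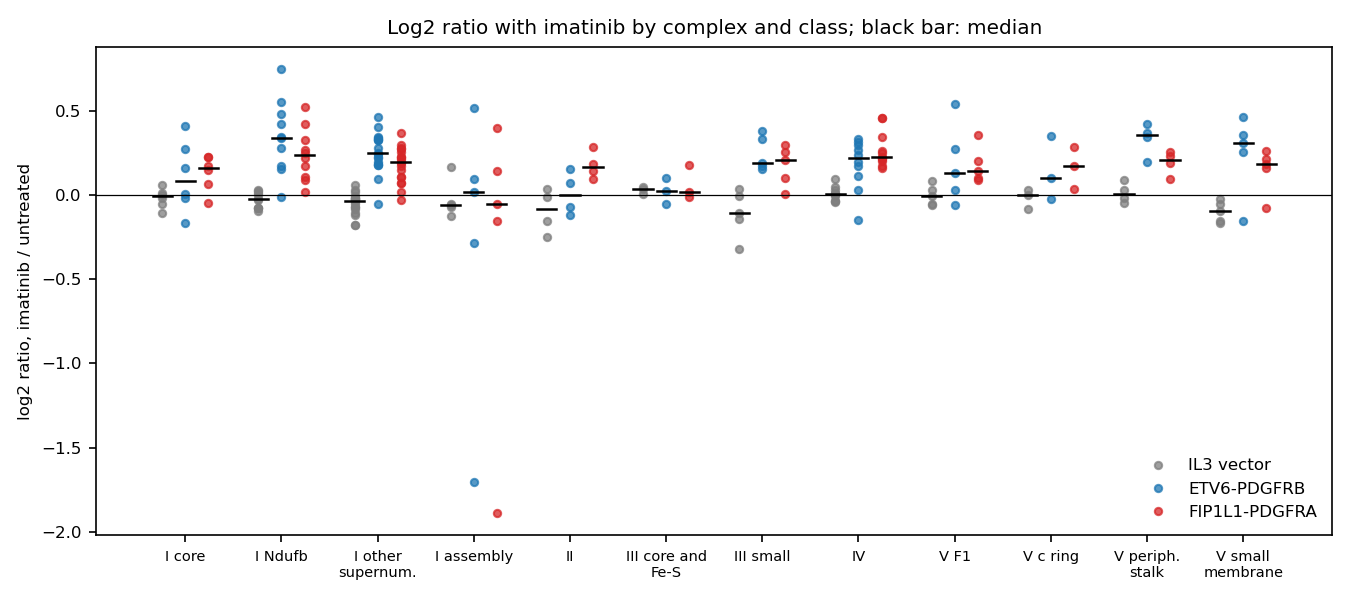
Log2 ratio of imatinib to untreated (y axis) for each member in IL3 vector, ETV6-PDGFRB and FIP1L1-PDGFRA cells, grouped by complex and subunit class, with black bars for class medians and 1 array pair per line. The Ndufb subunits have medians of 0.34 and 0.23 in the fusion lines against -0.03 in IL3 cells with the deposited scaling, and all points of a fusion line move down together with scaling to the hybridization controls.

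The lines side by side showed similar directions with the deposited scaling. In both fusion lines 61 of 78 members had a ratio above 0 (78.2%, against 41.7% of all genes tested), 3 were below 0 in both and 14 had opposite signs. The 41.7% counts a gene without a ratio in a line as not above 0, whereas the 78.2% leaves such a member out. Past a 1.5-fold limit, Ndufb1 alone was higher in ETV6-PDGFRB cells, where 8.63% of all measured genes were, and Ndufaf4 alone was lower, where 9.24% were. In FIP1L1-PDGFRA cells 0 members were higher (9.03% of all genes) and Ndufaf4 alone was lower (8.99%). In IL3 cells 0 members passed either way, against 0.914% of all genes higher and 0.539% lower. The SD of the 78 log2 ratios in the IL3 pair was 0.08, close to the 0.09 of genes of mean signal above 500, and that of all genes tested was 0.19. Across the 78 members, Pearson's r between the ratios of the fusion lines was 0.81 and Spearman's rho 0.47, and without Ndufaf4 they were 0.47 and 0.44. These are descriptions over genes that share the same arrays and scaling.

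Other probe sets of the same genes mostly shared the sign but not always the size. Of 58 such probe sets above the floor on all arrays, from 40 genes, 54 had a mean log2 ratio above 0 over the fusion lines with the deposited scaling. Their median was 0.26, and in the IL3 pair it was -0.03. Set against the representative probe set of the gene, the larger of the differences in the fusion lines had a median of 0.12 (log2), and 4 probe sets differed by more than 1.5-fold. For Ndufs8, 1 of several other probe sets had a log2 ratio of -0.86 with FIP1L1-PDGFRA where the representative had 0.17. That probe set was dim, at a mean of 39.7 and a lowest signal of 20.7, and had -0.54 in the IL3 pair. The brighter other probe sets of Ndufs8 had 0.31, 0.22, 0.32 and 0.27 with FIP1L1-PDGFRA. With ETV6-PDGFRB the other and the representative probe set had 0.87 and 0.07 for Sdhc, 0.49 and -0.12 for Sdhd, and 1.01 and 0.42 for Atp5o. With FIP1L1-PDGFRA they had -0.14 and 0.10 for Sdhc, -0.03 and 0.29 for Sdhd, and 0.25 and 0.25 for Atp5o. The sign therefore depends on the probe set for Sdhd in both fusion lines and for Sdhc with FIP1L1-PDGFRA. With ETV6-PDGFRB the size depends on it for Sdhc and Atp5o. For Ndufs8 only the dim probe set differed in sign with FIP1L1-PDGFRA. These 4 genes were picked after their values were seen.

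Whether the response differed between fusion cells and IL3 cells was tested as the difference of the imatinib effects, a fit with 1 residual degree of freedom. By limma 0 members and 0 of all genes passed (0%), while 1179 genes had an unadjusted p under 0.05 and the smallest adjusted p was 0.114. At that unadjusted level were 4 members (5.06%, against 17.3% of all genes): Ndufaf4 with a difference of -1.97 ± 0.20 (adjusted p = 0.139), Ndufb1 with 0.71 ± 0.21 (adjusted p = 0.229), Uqcrh with 0.66 ± 0.19 (adjusted p = 0.226) and Ndufaf3 with 0.53 ± 0.19 (adjusted p = 0.288). With a pseudocount of 16 in place of the floor, Ndufaf4 passed as lower. No member's response is therefore called particular to fusion cells here, except Ndufaf4 under that alternative.

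A second comparison set untreated fusion cells against IL3 cells to see how levels compare before the drug. By limma 0 of 79 members passed in either direction, against 0.338% of all genes higher and 0% lower. An unadjusted p under 0.05 was found for 0 members and for 5.74% of all genes. The median difference over the members was -0.03, and single differences ran from -0.26 ± 0.24 for Atp5md, a small subunit of the membrane part of complex V, to 0.19 ± 0.15 for Ndufaf7. Next among the higher ones were Cox7a1, Ndufa6, Atp5g1 and Atp5e with 0.15, 0.15, 0.15 and 0.14. Next among the lower ones were Sdhd, Ndufs1, Ndufv3 and Ndufaf4 with -0.26, -0.25, -0.25 and -0.19. Their adjusted p values were all 1.0, and the value of Cox7a1 rests on an ETV6-PDGFRB and an IL3 array set to the floor. Ndufs1 was 454 in IL3 cells, 370 with ETV6-PDGFRB and 393 with FIP1L1-PDGFRA, and Sdhd was 739, 610 and 628. Ndufv3 was 1185, 861 and 1158, so that the lower value came from ETV6-PDGFRB cells. The fusion gene cannot be told apart here from the absence of IL3 and the selection for growth without it.

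Genes that work with these complexes were counted in the same limma test of imatinib in both fusion lines. Of 31 further assembly factors, 4 rose (12.9%) and 7 fell (22.6%), against 13.5% and 12.4% of all genes. Sco2, a copper chaperone of complex IV, went from 116 to 39.0 and from 142 to 42.9 in the fusion lines and from 170 to 136 in IL3 cells, and it fell by 1.65 ± 0.14 (adjusted p = 0.00444). Ttc19, needed for complex III, fell by 1.02 ± 0.12 (adjusted p = 0.00821), and Sdhaf4, which helps build complex II, rose by 0.60 ± 0.12 (adjusted p = 0.0235). The median over the list was -0.02. Sco2 kept its call in 9 of 12 alternatives, Ttc19 in 10 of 13 and Sdhaf4 in 8 of 13.

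Of 18 genes for mitochondrial transcription and its nuclear activators, 0 rose and 3 fell (16.7%), the latter near the 12.4% of all genes that fell. Pprc1, a coactivator related to PGC-1, fell by 1.16 ± 0.08 (adjusted p = 0.00383), from 208 to 92.4 and from 249 to 113, and was 281 and 286 in IL3 cells. Tefm, the elongation factor of mitochondrial transcription, fell by 0.72 ± 0.09 (adjusted p = 0.00858), and Esrra, a nuclear receptor that acts on respiratory genes, fell by 0.54 ± 0.11 (adjusted p = 0.0244). These calls were kept in 11, 10 and 9 of 13 alternatives. Nrf1, Gabpa, Yy1 and Sp1, whose motifs were searched above, had changes of -0.30, 0.22, 0.17 and 0.22 that did not pass, and Ppargc1a was below the floor on all arrays.

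Of 16 genes for electron carriers and quinone synthesis, 2 rose (12.5%) and 0 fell, a share near the background of 13.5%. Etfdh, which feeds electrons to ubiquinone from fatty acid oxidation, rose by 0.35 ± 0.09 (adjusted p = 0.0407). Coq8a rose as well, from 22.8 to 52.9 with ETV6-PDGFRB and from below the floor to 33.6 with FIP1L1-PDGFRA, and it was below the floor in IL3 cells. Cytochrome c (Cycs) was at -0.21 and did not pass. Of 21 citric acid cycle genes, 1 rose and 1 fell (4.76% each), against 13.5% and 12.4% of all genes. Both encode subunits of the NAD-dependent isocitrate dehydrogenase: Idh3b rose by 0.35 ± 0.09 (adjusted p = 0.0403) and Idh3a fell by 0.38 ± 0.09 (adjusted p = 0.0395). Of 9 carriers for ADP, ATP, phosphate and related substrates, 1 rose (11.1%, near the background of 13.5%). It was Slc25a11, the oxoglutarate carrier, with 0.35 ± 0.09 (adjusted p = 0.042). The calls of Etfdh, Idh3a, Idh3b and Slc25a11 were lost with the floor at the 40th percentile (adjusted p = 0.0694, 0.0687, 0.0689 and 0.0714 in limma). They were kept in 6 of 13, 5 of 13, 5 of 12 and 6 of 13 alternatives. Of 16 genes for mitochondrial shape and the inner membrane 0 were called, against 13.5% of all genes that rose and 12.4% that fell, with a median of 0.15. Of 6 genes linked to hypoxia 1 fell (16.7%, against 12.4% of all genes), Vegfa, which was below the floor on both treated fusion arrays.

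**Figure D5:**
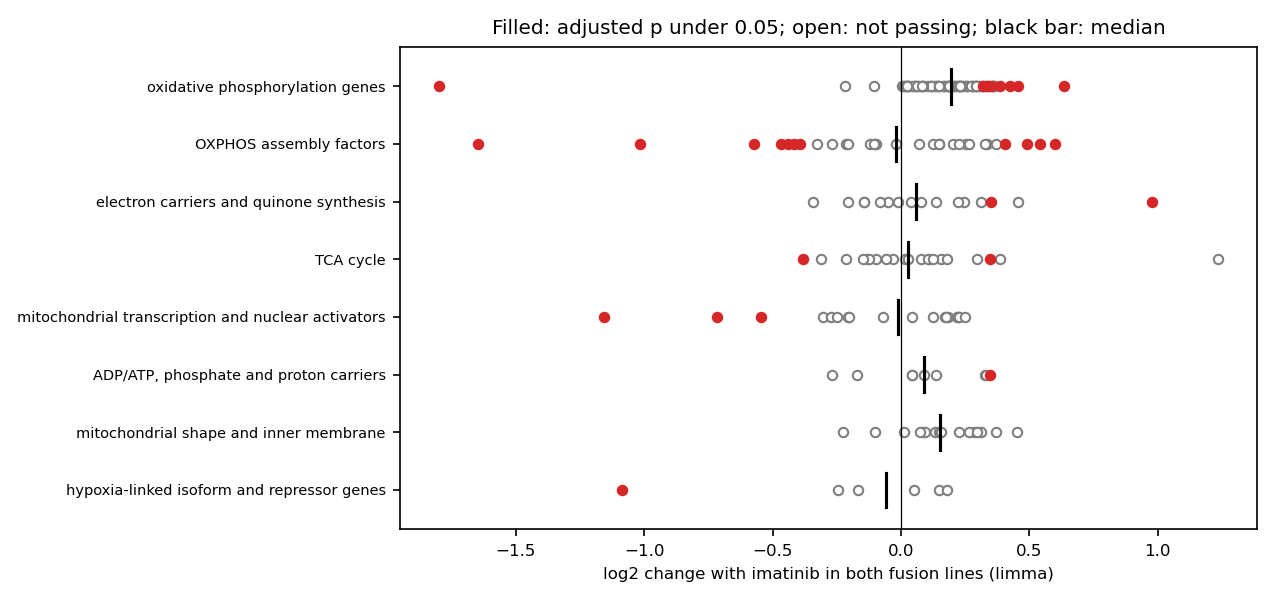
Log2 change with imatinib in both fusion lines (x axis, limma estimate with the deposited scaling) for the oxidative phosphorylation genes and 7 lists of related genes (rows), with filled points for adjusted p under 0.05 and black bars for medians. Of the members, 76 of 79 lie between 0 and 0.63 and Ndufaf4 is at -1.80, and the assembly factors spread from -1.65 to 0.60. With scaling to the hybridization controls the median of all genes tested moved from 0.04 to -0.17.

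The arrays resembled each other in some technical measures, with a 3' to 5' signal ratio of 0.754 to 0.802 for Gapdh and 1.12 to 1.22 for actin, and 49.8% to 50.6% of probe sets above the floor. The spiked hybridization controls differed between arrays. Scaling to them moved the median log2 ratio of all genes tested from 0.03 to -0.16 for ETV6-PDGFRB and from 0.05 to -0.21 for FIP1L1-PDGFRA. In IL3 cells it moved from 0.01 to -0.01. Of the B lineage list, Pax5, Ebf1, Vpreb1, Rag1 and Cd24a did not exceed the floor on any array. Cd79a (37.2 to 63.0), Cd79b (45.3 to 121) and Ptprc (606 to 892) exceeded it on all 6. Among the 4 tested genes of that list 1 rose, Cd79b. Markers of other cell types moved with imatinib. The 3 erythroid genes tested, Klf1, Gata1 and Epor, all rose, with a summed list signal that went from 794 to 1668 with ETV6-PDGFRB, from 492 to 1573 with FIP1L1-PDGFRA and from 614 to 589 in IL3 cells, while Hba-a1 and Alas2 stayed under the floor on every array. Of 3 mast cell, basophil and eosinophil genes tested, 2 rose (Cpa3 and Gata2), with summed signals of 1450 and 1927, 470 and 852, and 946 and 772 in the same order. Fcer1a, Ms4a2, Epx and Prg2 of that list were below the floor on every array. Over all genes tested 13.5% rose and 12.4% fell, and these marker lists hold few tested genes. Of the other marker lists, 1 of 2 myeloid genes tested fell (Adgre1) and 1 of 1 fibroblast gene fell (Acta2). T and NK, muscle and IL3-dependent receptor genes had 0 calls of 2, 2 and 3 tested. The part of these markers in the members' values was not tested.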

How the data were processed

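RNA of 6 Ba/F3 samples was measured on Affymetrix arrays. The deposited values are intensity signals on a linear scale, for which the submitters' processing notes name GCOS 1.4.0 and MAS5 as the authors' tools. The 2% trimmed mean was 100.0 on each array, so arrays had been scaled to a common level. Of 12393 singly annotated genes, 6808 exceeded the floor of 20.1 on at least 2 arrays. Signals below the floor were set to it before log2.

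The models were fitted with limma 3.58.1 in R 4.3.3 after tests on simulated data, and 13 alternatives were tried for imatinib in both fusion lines. That model has 2 residual degrees of freedom and 3.10 prior ones. Its p-values rest on the disagreement of the fusion lines and on the IL3 pair, since there were no repeat cultures. The untreated comparison used 4 group means and the lone IL3 arrays were assumed to vary like the fusion arrays. A gene with arrays at the floor shows too little spread, which makes its SE and p too small.

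Named genes were, for each complex, up to 4 called members in each direction and those with the largest and smallest change, up to 5 each way between untreated lines, up to 3 called genes per list, and Myc. Further members and activators named to illustrate a role were picked after their values were seen. The replicate block is the cell line, since the labels number no replicates. The members and lists were chosen with earlier results of these data known. Tables and figures were made with Python 3.11.15, numpy 2.4.6, pandas 2.3.3 and matplotlib 3.10.9.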

Additional observations from a re-analysis of the deposited data

Results flagged for a closer look

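Of 79 members, Uqcrh, the hinge protein of complex III, was singled out because its IL3 pair moved one way and both fusion pairs the other, each by more than 0.19, the SD of the log2 ratios of all genes tested in the IL3 pair. Its log2 ratio was -0.32 in IL3 cells, 0.38 in ETV6-PDGFRB cells and 0.29 in FIP1L1-PDGFRA cells, with the fusion lines above the IL3 pair by 0.66. The difference did not pass (adjusted p = 0.226 in limma). Without a limit on size, 38 members were below 0 in IL3 cells and above 0 in both fusion lines, and 1 was the other way round, counts that depend on the scaling.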

How the results depend on the processing

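All values come from 1 array per line and treatment, and shifts of this size lie near what the choice of scaling moves. The count of members that rose with imatinib, 7 as reported, was 2 when the floor was the 40th percentile, 17 when it was the 60th, 16 with a pseudocount of 16, 2 with no filter on low genes, 1 with hybridization-control scaling, 4 with quantile normalization, 12 when probe sets were averaged, 4 without suffixed probe sets, 1 with the 4 fusion arrays alone, 0 with no replicate block and 0 when either fusion line was left out. The count that fell, 1, became 0 with no filter, 3 with hybridization-control scaling and 0 when either line was left out. The cause was not tested, except that leaving out a line leaves 1 residual degree of freedom. Over all genes, 916 rose and 841 fell as reported, 398 and 1872 with hybridization-control scaling, 48 and 59 with no filter, 345 and 451 with no replicate block, 418 and 471 with the fusion arrays alone, 588 with the lower floor for those that rose, and 0 and 0 when a line was left out.

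Hybridization-control scaling moved the members' median log2 ratio to 0.0152 in ETV6-PDGFRB cells and reversed it to -0.0747 in FIP1L1-PDGFRA cells. Past 1.5-fold in ETV6-PDGFRB cells, 1 member was higher as reported, 0 with that scaling and 2 when probe sets were averaged. It reversed Atp5g1 to -0.22, Cox8a to -0.17, Sdha to -0.17, Sdhb to -0.0771 and Uqcrc2 to -0.21, and quantile normalization reversed Atp5g1 to -0.0251, Cox8a to -0.028 and Uqcrc2 to -0.0021, all uncalled. Leaving out a fusion line moved Atp5g1 between -0.0242 and 0.0349, Cox8a between -0.15 and 0.26, and Sdha between -0.0711 and 0.19. In the untreated comparison Cox7a1, at 0.15, became -0.22 with the lower floor and -0.094 with a pseudocount. Of all genes 23 were higher and 0 lower there as reported, between 0 and 58 were higher under the alternatives, and 43 were lower with no filter. For the difference of responses, a pseudocount gave 1 lower member, Ndufaf4, with 103 genes higher and 193 lower, and the floor at the 60th percentile gave 10 lower genes, against 0 as reported, and the fit with no replicate block gave 0. Leaving out a line left no residual degrees of freedom in those comparisons, so they have no such test.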

Other observations

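ND5, a complex I subunit encoded in mitochondrial DNA and so not a member, was looked up after its values were seen. Its signals, untreated and with imatinib, were 332 and 786 for ETV6-PDGFRB, 525 and 730 for FIP1L1-PDGFRA, and 422 and 387 for IL3 cells. It rose by 0.86 ± 0.19 in limma (adjusted p = 0.0327), while Tefm fell in the same test. The log2 ratios of the fusion lines, 1.24 and 0.47, were unequal.

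Probe sets that carry the symbols of several genes were left out of the members. On the deposited scaling, that of Ndufa11 had log2 ratios of 0.29 with ETV6-PDGFRB, 0.23 with FIP1L1-PDGFRA and -0.06 in IL3 cells, and that of Ndufs6 had 0.19, 0.10 and 0.09. The pair for Ndufb4 had 0.22 and 0.36 with ETV6-PDGFRB, but only 0.04 and 0.07 with FIP1L1-PDGFRA, and 0.01 and 0.03 in IL3 cells. That of Ndufs5 had 0.47, 0.12 and -0.08, and that of Ndufab1 0.11, 0.19 and -0.11. Those of Ndufb2 and Ndufa13 were below the floor on all 6 arrays.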
